A study of Arabidopsis thaliana with 6 samples.

Results

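UGT78D1 and UGT84A1 are UDP-glycosyltransferases of phenylpropanoid metabolism in Arabidopsis thaliana, and each was read by 1 probe set, 2 of the 22810 probe sets of the array and 2 of its 13350 named genes. They were chosen by their measured Tween 20 over water folds on these 6 arrays, which ran in opposite directions, from the 13513 probe sets to which the platform annotation gives 1 gene. Their signals and folds are therefore given below as a description, with no test.

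UDP-glycosyltransferases move a sugar from a UDP-sugar to a small acceptor molecule, which changes the solubility, storage and activity of the acceptor. Phenylalanine is turned by the general phenylpropanoid pathway into activated hydroxycinnamic acids, from which one branch leads through chalcone to flavonols and anthocyanins and another to lignin precursors and sinapate esters. UGT78D1 acts late in the first branch and adds rhamnose to flavonols such as kaempferol and quercetin. UGT84A1 acts in the second and makes glucose esters of hydroxycinnamic acids. In leaves both kinds of product are known for absorbing ultraviolet light.

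Tween 20, a non-ionic detergent, was sprayed at 0.2% (1.6 mM) and compared with distilled water on Col-0 plants that were 28 days old and had grown in sterile 0.5 L jars. Leaves were sampled 1 h after spraying in IA and IB, which are repetitions, and 2.5 h after spraying in II, and each of these 3 experiments gave 1 Tween array and 1 water array. RNA of 3 extracts was pooled for each array, which hides the spread between extracts. The treatment text of the IA samples names 2.5 h, and that of the Tween samples names water, so that the groups used here follow the sample titles. The median signal lay between 36.5 and 40.45 units on all arrays, and signals under the 40th percentile of their own array (20.6 to 23.9 units) are called dim here, because detection calls were not used. Both arrays of IB stood apart in the actin control, where the 3' probe set exceeded the 5' one by 2.76 (Tween) and 2.94 (water) on the log2 scale, while the excess was larger on the other 4 arrays and reached 4.26. In the ubiquitin control both arrays of II, the 2.5 h pair, stood apart, with an excess of 1.81 (Tween) and 1.71 (water) against 0.92 to 1.12 on the other 4 arrays. The part of these differences in the results was not tested, and each fold below is given by experiment. Of the leaf markers only RCA, the Rubisco activase, had a named probe set, with 3651.7 to 3955.5 units under Tween 20 and 3601.3 to 4176.4 under water. PYK10, a beta-glucosidase best known from roots and seedlings, was bright as well, at 745.2 to 980.8 units under Tween 20 and 839.1 to 1126.8 under water. In whole leaves, fewer cells that express a gene and less RNA per cell cannot be told apart.

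UGT78D1 (AT1G30530, on chromosome 1) was lower with Tween 20 in each pair, by much more after 1 h than after 2.5 h. In IA its signal was 108.7 units with Tween 20 and 382.2 units with water. In IB it was 39.2 units with Tween 20 and 171.2 units with water, and in II 202.3 units with Tween 20 and 262.3 units with water. The 1 h pairs thus lay close together as ratios, 3.52-fold lower in IA and 4.37-fold lower in IB, while the 2.5 h pair was 1.30-fold lower. The log2 folds were -1.81, -2.13 and -0.37 in IA, IB and II, with a mean of -1.97 ± 0.22 at 1 h (SD, n = 2) and no replicate at 2.5 h. Across experiments the arms overlapped, because the Tween signal of II was above the water signal of IB, whereas 3.31% of tested probe sets had all 3 Tween signals below all 3 water signals. All 6 signals of UGT78D1 were above the 40th percentile of their arrays.

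The size of the UGT78D1 difference can be set against the rest of the array without a test. Among the 14345 probe sets bright enough to be tested, 13 had a lower log2 fold than UGT78D1 in experiment IA, 3 in experiment IB and 1174 in experiment II. A difference of 2-fold or more in the lower direction, with a water signal that was not dim, was met in IA by 1.07% of them, in IB by 0.725% and in II by 0.23%. UGT78D1 met it in IA and IB and not in II. Since these folds chose the gene, nothing further is read from its place among the probe sets. The spread over experiments was wider under Tween 20, where the 3 log2 signals of UGT78D1 covered a range of 2.37, against 1.16 under water.

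UGT84A1 (AT4G15480, on chromosome 4) was higher with Tween 20 in each pair, but from signals that were often dim. In IA its signal was 56.6 units with Tween 20 and 26.3 units with water, and both were above the 40th percentile. In IB it was 18.6 units with Tween 20 and 2.4 units with water, and both were dim. In II it was 36.4 units with Tween 20 and 8.0 units with water, of which the water signal was dim. The nominal folds were 2.15-fold, 7.75-fold and 4.55-fold higher in IA, IB and II, and the log2 folds 1.11, 2.95 and 2.19. The mean at 1 h was 2.03 ± 1.31 (SD, n = 2), so that the spread between the 1 h pairs was far wider than for UGT78D1. The arms overlapped across experiments here too, since the Tween signal of IB was below the water signal of IA.

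How far UGT84A1 stood above water depends on how the dim signals are read. With every signal below the 40th percentile raised to that percentile, the ratio remained 2.15-fold in IA, became 1.53-fold in II and was 1.00-fold in IB. The pair in which neither signal was dim was therefore the one with the smallest nominal fold. With 16 units added to each signal, the mean log2 fold at 1 h was 0.84 and that at 2.5 h was 1.13. A 2-fold difference in the higher direction with a Tween signal that was not dim was met in IA by 3.77% of tested probe sets, in IB by 1.7% and in II by 1.08%, and by UGT84A1 in IA and II.

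**Figure D1:**
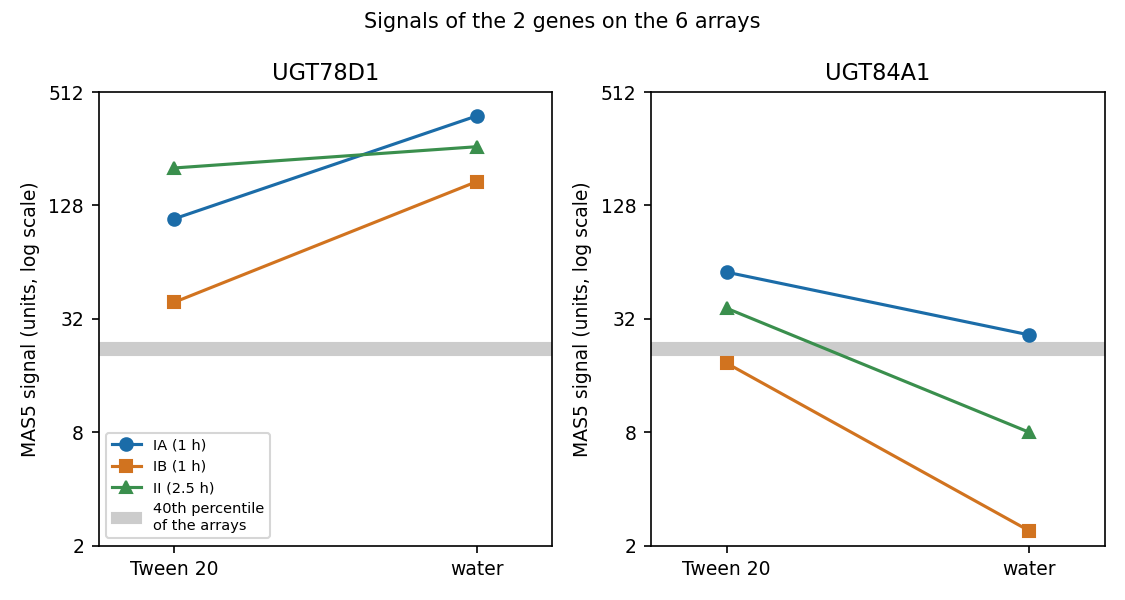
MAS5 signals (log scale) of UGT78D1 and UGT84A1 on the Tween 20 and water arrays, with 1 line per experiment and a grey band at the 40th percentiles of the arrays. UGT78D1 slopes down towards Tween 20 in each experiment and lies above the band on all 6 arrays, while UGT84A1 slopes up and has 3 of its 6 signals below the band.

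Side by side, the 2 genes differed in how the nominal fold of the 1 pair at 2.5 h stood to those of the 1 h pairs. Only II was sampled at 2.5 h, so that time and experiment cannot be told apart. UGT78D1 had a log2 fold of -0.37 at 2.5 h against a 1 h mean of -1.97, a difference of 1.60. UGT84A1 had a nominal log2 fold of 2.19 at 2.5 h, which lay between its 1 h values of 1.11 in IA and 2.95 in IB. Over the 6 arrays their log2 signals had a Pearson's r of -0.12. One feature was common to both, since within each arm the IB array had the lowest signal of either gene. UGT78D1 was 2.23-fold brighter in IA than in IB under water, and UGT84A1 was 11.0-fold brighter from its dim IB signal of 2.4 units.

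The close relatives of UGT78D1 were compared next. UGT78D2, which adds glucose to flavonols and anthocyanidins, was at 299.6, 189.5 and 176.1 units under Tween 20 in IA, IB and II, and at 469.5, 186.3 and 197.4 units under water. Its log2 folds were -0.65, 0.02 and -0.17, so that it was below water in IA and close to it in IB and II. In limma's paired test over the 3 experiments its estimate was -0.26 ± 0.15 (SE), with a Benjamini-Hochberg adjusted p of 0.443. The log2 fold of UGT78D1 lay below that of UGT78D2 in each pair, by 1.17, 2.15 and 0.21. UGT78D3, which adds arabinose to flavonols, and AT5G17040 had signals of at most 4.1 and 7.7 units on any array, too dim for a fold.

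Other genes of the flavonoid branch were taken from lists of 11 biosynthetic genes and 11 genes of sugar, acyl and transport steps, of which 10 had a probe set and 4 were tested. None of the 4 passed limma's test over the 3 experiments, in which 1.02% of all tested probe sets rose and 0.105% fell. At an unadjusted p under 0.05, 2 of the 4 were lower and 0 higher, against 7.53% lower and 8.17% higher among all tested probe sets. CHIL, a chalcone isomerase-like protein that promotes flavonoid formation, was at 106.8, 71.8 and 145.8 units under Tween 20 in IA, IB and II. Under water it was at 278.9, 123.2 and 225.0 units. It was lower with Tween 20 in each pair, with log2 folds of -1.39, -0.78 and -0.63. The estimate was -0.93 ± 0.16 (SE), just outside the threshold (limma, adjusted p = 0.0554). It passed without IB (adjusted p = 0.0129) and with the filter on dim probe sets set at the 60th percentile (0.0456), and its adjusted p was between 0.0591 and 1.00 under the other alternatives. Without IB, 730 of all 14345 tested probe sets passed, against 161 with all 3 experiments.

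AT1G06000, which entered the list by its locus code and has no symbol in the annotation used, was at 221.8, 111.5 and 253.6 units under Tween 20, against 382.0, 237.7 and 281.5 units under water. Its log2 folds were -0.78, -1.09 and -0.15, again lower in each pair and nearest to water in II. The estimate over the 3 experiments was -0.68 ± 0.18 (SE, limma adjusted p = 0.147). Its effect at 2.5 h minus that at 1 h was 0.79 ± 0.28 (SE), with an adjusted p of 0.998 in limma's interaction test. DFR, the reductase that leads towards anthocyanins, had no common direction, with log2 folds of 0.06, -0.55 and 0.10, and its Tween signal in IB was dim. The 6 other genes with a probe set, among them BAN, UF3GT and AT5MAT, were too dim to be tested. The 4 tested genes had a median log2 fold of -0.72, -0.67 and -0.16 in IA, IB and II, against -0.08, -0.03 and -0.02 over all tested probe sets. Being lower in all 3 pairs, as 2 of the 4 were, held for 23.6% of all tested probe sets.

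In the hydroxycinnamate branch, lists of 11 genes towards lignin precursors and 8 genes of conjugation held 8 genes with a probe set, of which 7 were tested. None of the 7 passed the same test in either direction, and at an unadjusted p under 0.05, 4 were higher and 0 lower, against 8.17% and 7.53% of all tested probe sets. UGT84A4, an isoform of UGT84A1 with hydroxycinnamate glucosyltransferase activity, was at 50.2, 47.3 and 50.2 units under Tween 20 in IA, IB and II, against 31.6, 24.5 and 37.0 units under water. The 3 Tween signals were nearly equal and all above the 3 water signals, a separation found in 4.56% of tested probe sets. Its log2 folds were 0.67, 0.95 and 0.44, and its estimate was 0.69 ± 0.16 (SE, limma adjusted p = 0.103). UGT84A1 stood above UGT84A4 in log2 fold by 0.44 in IA, where its signals were not dim, and by 2.00 and 1.75 in IB and II, where they were in whole or in part.

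UGT84A3, another hydroxycinnamate glucosyltransferase of the same gene cluster, was bright, at 206.8, 161.1 and 138.0 units with Tween 20 against 175.2, 160.9 and 160.4 units with water. Its log2 folds of 0.24, 0.00 and -0.22 had no common direction, and the estimate was 0.01 ± 0.13 (SE, limma adjusted p = 0.985). UGT72E1, which glucosylates coniferyl and sinapyl aldehydes, was higher in each pair, at 0.57, 0.28 and 0.47 (estimate 0.44 ± 0.12, SE, limma adjusted p = 0.146). Its signals were 157.6, 182.7 and 293.9 units under Tween 20 and 106.3, 150.2 and 212.6 units under water. UGT72E2, a glucosyltransferase of monolignols, stood at -0.06, 0.29 and -0.04. UGT72E3 was too dim for a fold, with signals of at most 7.4 units.

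Among the enzymes that feed this branch, CCR2, a cinnamoyl-CoA reductase, stood at 1.34, 0.48 and 0.32 (estimate 0.72 ± 0.23, SE, limma adjusted p = 0.206). Its signals were 53.3, 31.0 and 30.5 units under Tween 20 and 21.0, 22.2 and 24.4 units under water, of which the water signal of IA was dim. ALDH2C4, also called REF1, oxidises coniferaldehyde and sinapaldehyde to ferulic and sinapic acid, acids of the kind that UGT84A enzymes esterify. Its signals were 744.9, 638.0 and 679.2 units under Tween 20 and 689.1, 426.3 and 565.3 units under water. The log2 folds were 0.11, 0.58 and 0.27, higher in each pair, and the estimate was 0.32 ± 0.12 (SE, limma adjusted p = 0.257). HCT, which transfers hydroxycinnamoyl groups to shikimate, stood at -0.34, -0.11 and 0.01. The 7 tested genes had a median log2 fold of 0.24, 0.30 and 0.27 in IA, IB and II. Higher in all 3 pairs were 4 of the 7, against 15.2% of all tested probe sets.

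**Figure D2:**
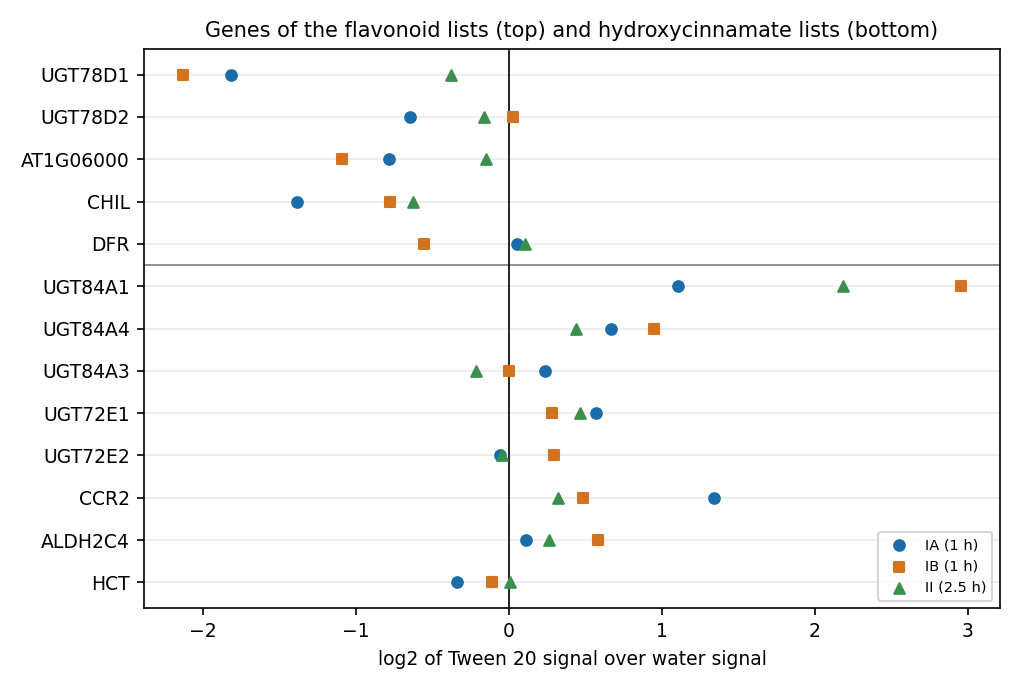
Log2 of Tween 20 over water signal in experiments IA, IB and II (1 point each) for UGT78D1 and the 4 tested genes of the flavonoid lists above the line, and for UGT84A1 and the 7 tested genes of the hydroxycinnamate lists below it. CHIL and AT1G06000 lie left of 0 in each experiment with UGT78D1, and UGT84A4, UGT72E1, CCR2 and ALDH2C4 lie right of 0 in each with UGT84A1.

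At 1 h alone, limma passed 0 of the 14345 probe sets and therefore none of the 11 tested pathway genes, with 1691 probe sets at an unadjusted p under 0.05. Of the 11, 3 were higher and 2 lower at that p, against 6.49% and 5.3% of all tested probe sets. The interaction test, of the 2.5 h effect minus the 1 h effect, passed 0 probe sets, with 356 at an unadjusted p under 0.05, among them AT1G06000 as 1 of the 11, with the larger value at 2.5 h. At that p the interaction was above 0 for 1.19% and below 0 for 1.3% of all tested probe sets. Lists of 9 general phenylpropanoid genes, 4 genes of UDP-rhamnose synthesis and 19 regulators were not analysed here, because no member had a probe set with 1 gene. The values above thus cover 18 of 73 listed genes and do not stand for the whole pathway.

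Some list genes had profiles over the 6 arrays close to that of one of the 2 genes. Correlations are given as a description over 6 arrays that share their experiments, with no test. Pearson's r with UGT78D1 was 0.98 for AT1G06000, rank 7 of 7738 tested probe sets with 1 gene, and 0.95 for CHIL, rank 56. It was 0.69 for DFR and 0.41 for UGT78D2, ranks 1298 and 2831. For UGT84A1, r was 0.98 with ALDH2C4, rank 3 of 7738, and 0.81 with UGT84A4, rank 240, but 0.30 with UGT84A3, rank 2701. The other tested genes of the hydroxycinnamate lists were UGT72E2 (0.69, rank 697), CCR2 (0.66, rank 852), UGT72E1 (0.105, rank 3610) and HCT (-0.08, rank 4401). UGT84A1 was dim on 3 of these 6 arrays, where its log2 signals were also lowest. The amplitudes differed widely, since ALDH2C4 covered 426.3 to 744.9 units and UGT84A1 2.4 to 56.6 units. The minima lay in the IB arrays, where the Tween signal was lowest of all 6 for UGT78D1, AT1G06000 and CHIL and the water signal was lowest for UGT84A1, ALDH2C4 and UGT84A4. The highest signals lay in IA, on the water array for UGT78D1, AT1G06000 and CHIL and on the Tween array for UGT84A1 and ALDH2C4.

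**Figure D3:**
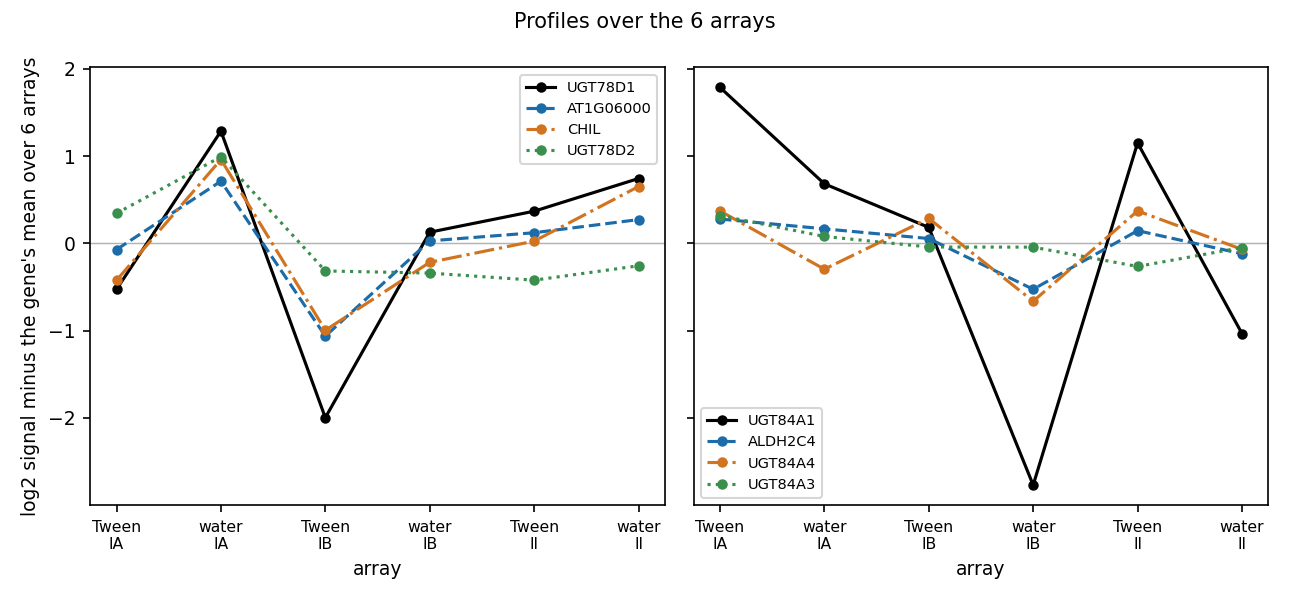
Log2 signal minus the mean of each gene over the 6 arrays, for UGT78D1 with AT1G06000, CHIL and UGT78D2 (left) and for UGT84A1 with ALDH2C4, UGT84A4 and UGT84A3 (right). UGT78D1, AT1G06000 and CHIL all have their minimum on the Tween array of IB, and UGT84A1, ALDH2C4 and UGT84A4 on the water array of IB.

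Outside these branches, the 5 tested genes with the highest r to UGT78D1 were TBL26, a member of the trichome birefringence-like family, and AT1G11090, AT2G18890, AT4G18570 and AT4G23490, with r between 0.985 and 0.994. TBL26 was at 346.9, 189.8 and 427.2 units under Tween 20 and at 578.0, 384.0 and 494.5 units under water. The nearest by the 3 log2 folds, as the Euclidean distance, were AT5G62730 (0.70), AT2G07170 (0.99), AT5G47380 (1.12), AT5G01790 (1.12) and the sugar transporter SWEET1 (1.18). AT5G62730 was dim on all 3 Tween arrays (10.7, 20.3 and 9.9 units in IA, IB and II) and was thus tested only through its water signals. AT2G07170 was dim on both arrays of IB, with 2.8 units under Tween 20, and on the Tween array of IA. AT5G47380 was dim on the Tween array of IB (10.5 units). SWEET1 had 122.3, 115.9 and 259.7 units under Tween 20 and 285.7, 272.1 and 237.6 units under water. It thus shared with UGT78D1 a lower Tween signal in both 1 h pairs and differed in II, where it was slightly above water. These 10 genes were picked by their likeness to UGT78D1, so that their values are given as a description. None of them passed limma's test over the 3 experiments, where their adjusted p lay between 0.103 and 0.318. That test counts a difference between the 1 h and 2.5 h folds, as seen in UGT78D1, as spread.

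For UGT84A1, the 5 with the highest r were AT5G08139, AT3G21810, ALDH2C4, AT1G69730 and AT5G11490, with r between 0.979 and 0.988. They were picked by their profiles and are likewise given as a description, and none of them passed limma's test over the 3 experiments. The nearest by log2 folds were AT1G49000 (distance 1.18), AT5G12420 (1.23), AT5G44910 (1.36), AT3G56260 (1.38) and AT2G46150 (1.39). These genes were picked by their folds, so that a rise in each follows in part from the choice and is given as a description. All 5 rose with Tween 20 in limma's test over the 3 experiments, with log2 estimates from 1.43 to 2.26 and adjusted p from 0.0214 to 0.0342. None passed without IA or without II (limma adjusted p from 0.0673 to 0.101), but in either case 0 of all 14345 tested probe sets passed. AT5G12420 had 81.9, 106.2 and 76.2 units under Tween 20 and 26.3, 23.1 and 29.5 units under water. Unlike UGT84A1 it was dim on none of the 6 arrays.

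Across the family, 50 other genes named as UDP-glycosyltransferases by symbol or synonym in the annotation had a probe set and 28 were tested. Genes with a locus code alone, such as AT1G06000 (mean log2 fold -0.68), were not counted. None of the 28 passed limma's test over the 3 experiments, and at an unadjusted p under 0.05, 7 were higher and 3 lower, against 8.17% and 7.53% of all tested probe sets. Higher in all 3 pairs were 9 of them (32.1%, against 15.2% of all tested probe sets), and lower in all 3 were 5 (17.9%, against 23.6%). The filter on dim probe sets took bright arrays of either arm, here as for all tested probe sets. UGT73B4, counted as higher both times, was dim on all 3 water arrays and was thus tested only through its Tween signals. In IA, IB and II their median log2 folds were 0.18, -0.07 and 0.06. By the mean of the 3 log2 folds, UGT84A1 was the highest of these 30 tested genes (2.08) and UGT78D1 the lowest (-1.44). These folds chose the 2 genes, so that their places at the ends follow in part from the choice and are given as a description. With 16 units added to each signal, UGT73B5 (1.23) stood above UGT84A1 (0.94), and UGT78D1 was still the lowest.

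The other family members furthest above water were mostly carried by IA. UGT73B5 and UGT73B4, glucosyltransferases of stress responses that can act on flavonols, stood at 3.36, 0.62 and 0.80 and at 2.77, 0.27 and 1.27 in IA, IB and II. Both passed only without IB (limma adjusted p = 0.0225 and 0.00621), where 730 of all 14345 tested probe sets passed, against 161 with all 3 experiments. UGT73C1 stood at 1.82, -0.09 and 0.44, and UGT76B1, a glucosyltransferase of immune signalling, at 1.13, 0.28 and 0.49. As for UGT84A1, several of these folds rest on dim water signals. The water signal was dim in IA, IB and II for UGT73B4 and UGT73C1, in IA for UGT73B5 (21.6 units), and in IA and II for UGT76B1. The Tween signal was dim in IB for UGT73C1 and in II for UGT76B1. UGT84A1 differed from these genes in order, with its smallest nominal fold in IA. UGT84A4 was the one other gene among the 5 highest whose fold was larger in IB than in IA. At the lower end of the same 30, after UGT78D1, UGT85A5 stood at -0.86, -0.52 and -0.51, UGT72B3 at -0.84, -0.24 and -0.20, UGT71B1 at -0.17, -0.41 and -0.29, UGT78D2 at the values above and UGT76E11 at 0.03, -0.31 and -0.29. Of these, UGT85A5 was dim on both arrays of IB and on the Tween array of IA. UGT84B1 and UGT84B2, of the UGT84B group, had at most 1.9 and 6.1 units and were too dim for a fold.

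**Figure D4:**
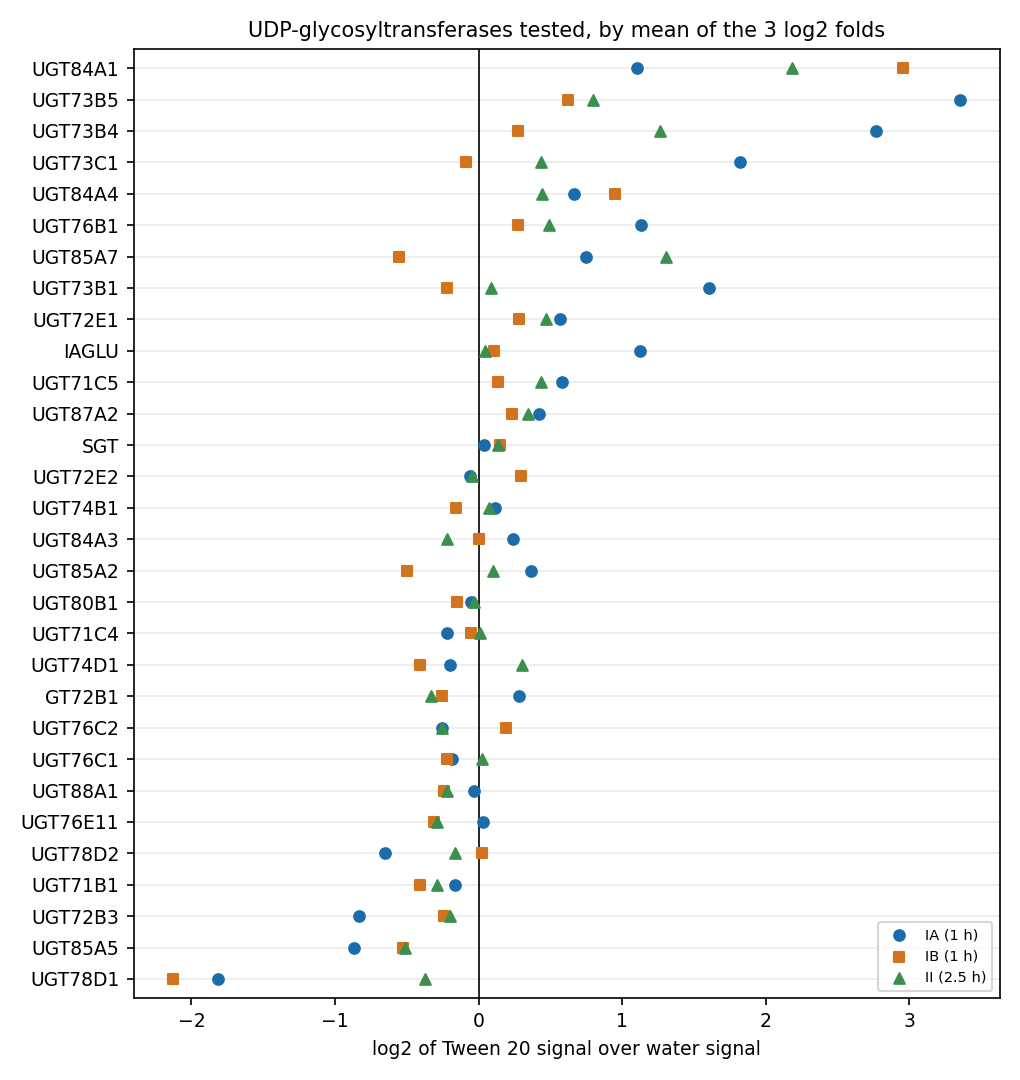
Log2 of Tween 20 over water signal in experiments IA, IB and II (1 point each) for the 30 tested UDP-glycosyltransferase genes, ordered by the mean of the 3 values. UGT84A1 is at the top with its IA point furthest left of its 3 points, and UGT78D1 at the bottom with its II point apart from the 1 h points.

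Genes next to the 2 genes on their chromosomes were examined last. In the gene order of the RefSeq annotation of TAIR10.1, UGT84A1 is followed directly by UGT84A3 and UGT84A4, whose folds are given above. On its other side AT4G15475, whose annotated span overlaps that of UGT84A1, had 126.9, 83.1 and 138.2 units under Tween 20 and 123.3, 97.9 and 123.5 units under water, with log2 folds of 0.04, -0.24 and 0.16. Next to UGT78D1, AT1G30540 stood at -0.05, 0.04 and -0.47 and AT1G30550 at 0.31, 0.28 and 0.15. None of these passed limma's test, with adjusted p of 0.978, 0.672 and 0.508 in the same order. Probe sequences were not analysed here, so that cross-hybridisation between UGT84A1 and its tandem copies was not tested.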

How the data were processed

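The deposited table gives 1 signal intensity per probe set and array on a linear scale. MAS5 is the one tool that the labels' list of the authors' processing names, per the submitters' processing notes, without version or parameters. The mean between the 2nd and 98th percentiles was 100.008 or 100.009 on every array, so that a change common to most transcripts cannot be read from these values. The intensities were used as deposited, and signals below 0.1 were raised to 0.1 before the log2. After 64 control probe sets were left out, the 14345 probe sets with a signal at or above the 40th percentile of the array on 2 or more arrays were tested. Names came from the GEO platform annotation (503 probe sets with several genes and 8730 with none stayed unnamed). Of the 13513 probe sets with 1 gene, 13436 matched RefSeq's annotation of TAIR10.1 by gene identifier, which was used for names and gene order, and no coordinates are given.

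Tests used limma 3.58.1 in R 4.3.3, with the experiment as a block, an intensity trend and Benjamini-Hochberg adjustment over all 14345 probe sets at 0.05. The fold estimates of the fit over 3 experiments were checked on simulated data, a check that does not cover the p-values on these arrays. The fit over 3 experiments left 2 residual degrees of freedom, and the 1 h fit and the interaction 1 each. The interaction takes the spread seen at 1 h for 2.5 h as well, and it cannot separate the time from experiment II. Pairs follow the titles, and arrays of 1 experiment deviated together from the means of their arms (r = 0.576, 0.714 and 0.711 for IA, IB and II). P-values set an effect against the spread of the log2 folds between experiments, and the small number of arrays limits the precision. In the fit over 3 experiments that spread also holds any difference between 1 h and 2.5 h. For each probe set limma draws that spread towards the one of probe sets of like intensity. The weight of this part was 5.03 prior degrees of freedom in the fit over 3 experiments and 4.70 at 1 h.

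The 2 genes and the gene lists were chosen with earlier results of these data known. Named genes are list genes with a probe set, the 5 highest and 5 lowest tested family members, the UGT78 and UGT84 groups, the 5 genes most alike by each measure, and neighbours up to 3 places away. Alternatives changed the scaling, the pseudocount, the filter, the trend, the block and the experiments included.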

Additional observations from a re-analysis of the deposited data

Results flagged for a closer look

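AT4G15460, which lies near UGT84A1 in the gene order, was higher with Tween 20 in both 1 h pairs and lower in the 2.5 h pair, at 0.49 in IA, 0.72 in IB and -0.12 in II as log2 folds. Its effect at 2.5 h minus the 1 h mean was -0.717. This difference was not tested, because all 6 signals were dim (4.6 to 13.6 units under Tween 20 and 2.8 to 9.7 units under water).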

How the results depend on the processing

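The signs of both genes' folds at 1 h and 2.5 h were the same under median centring, quantile normalization and an added 16 units. The 1 h mean of UGT78D1 became -1.72 with 16 units added, more than 1 SD from its value, and lay between -2.13 and -1.81 without IA or IB. That of UGT84A1 lay between 1.11 and 2.95. Over the 3 experiments limma passed 161 probe sets, 92 with median centring, 0 with no filter, 2 with no trend, 0 with no replicate block, and 0 to 730 when 1 experiment was left out (0 without IA, 730 without IB, 0 without II). The 5 genes named as nearest to UGT84A1 by folds also lost their calls with no filter, no trend or no block. At 1 h it passed 8 with median centring, 105 with quantile normalization and 9 with a filter at the 60th percentile, against 0, and the interaction passed 0 under each alternative. The cause was not tested. Over all 22746 probe sets that are no controls, a 2-fold difference with a brighter signal that was not dim was found for 751, 376 and 202 in IA, IB and II, against 3014, 3055 and 2382 with no filter, and 236 and 103 in IB and II with the 60th percentile. Of 413 values of 43 named genes under 10 alternatives, 384 were on the same side of the threshold, 25 lost a call and 4 gained one, and 0 calls reversed. All 25 losses were among the 5 genes nearest to UGT84A1 by folds, the only ones of the 43 called in the main fit. Estimates without a call could change sign, such as that of DFR from -0.131 to 0.079 without IB and that of UGT84A3 from 0.008 to -0.108 without IA. Detection calls were not used, so the dim signals of UGT84A1 limit what can be said of its size.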
